A study of Mus musculus with 6 samples.

Results

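The genes described are 7 FGF ligand genes of tongue muscle and mesenchyme: Fgf4, Fgf5, Fgf6, Fgf7, Fgf9, Fgf10 and Fgf18. Every probe set whose single gene symbol in the platform annotation was one of these names was taken, which gave 13 of the 45101 probe sets and 7 of the 18193 genes on the array. Fgf4 was read by 4 probe sets, Fgf5, Fgf7 and Fgf9 by 2 each, and Fgf6, Fgf10 and Fgf18 by 1 each. The choice rested on the symbols alone, although earlier results of these data were known when it was made. Tongue RNA came from C57BL/6J mouse embryos at embryonic day 14.5, with 1 Affymetrix array per sample. The 3 mutants had the genotype Tgfbr2 fl/fl; Wnt1-Cre and the 3 controls had Tgfbr2 fl/fl, so by the genotype labels both groups carried the floxed receptor gene and Cre was present only in the mutants. The sample titles call the controls wildtype. Wnt1-Cre recombines in the neural crest and its descendants. In the tongue these include most connective tissue cells, whereas the muscle fibres descend from mesoderm, where this Cre is not active. The comparison addressed gene regulation by TGF-beta in a developing tongue that stays small when the receptor is lost from the neural crest.

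Fibroblast growth factors are secreted proteins that bind receptor tyrosine kinases together with heparan sulfate, a sugar chain carried by syndecans and glypicans. The receptors signal largely through the Ras and ERK kinases, and sprouty proteins and the phosphatase encoded by Dusp6 act as feedback inhibitors. Fgf6 and Fgf4 are ligand genes known from embryonic skeletal muscle, Fgf10 and Fgf7 encode mesenchymal ligands that signal to epithelium through a splice form of Fgfr2, and Fgf18 and Fgf9 are active in the growth of mesenchyme and skeleton.

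Values are log2 expression after RMA, which makes levels comparable between arrays for the same probe set and not between probe sets. Mutant array 1 stood apart from the other arrays: its Pearson correlation with them over 13645 tested genes was 0.966 to 0.978, against 0.984 to 0.998 among the rest. Tgfbr2 itself was 11.16, 11.79 and 11.69 in mutant arrays 1 to 3 and 11.55, 11.82 and 11.80 in the controls, an overlap of the groups (limma, adjusted p = 0.642). The labels do not say which part of the gene is removed or where the probes lie, and cells without Cre keep the gene, so these levels are no check of the genotype labels. Each genotype held embryos of both sexes by their sex-linked RNA: Xist was 11.74 to 13.17 in mutant arrays 1 and 3 and control array 1, and 6.14 to 6.43 in the other 3 arrays. The level under which the dimmest 25% of genes lay was 5.17. All 14 skeletal muscle markers, all 10 mesenchymal markers and the 9 measured epithelial markers were above it. The neural tube markers Pou3f2 and Gfap were too, so passing this level does not by itself show that a tissue was present. The labels call the material tongue in one place and tongue mesenchyme in another.

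The promoters of the 3 genes with a lower probe set in the mutants are shown. This sets the sequence before the start of the muscle ligand Fgf6 beside those of Fgf5 and Fgf4, which were lower on only some of their probe sets. They are RefSeq sequences of the build GRCm38.p6, from 250 bases before to 50 bases after the gene start, written 5′ to 3′ on the plus strand, on which all 3 genes lie. Capitals mark matches on either strand to the E-box CANNTG, a general motif of bHLH factors that is not specific to myogenic ones such as MyoD.
Fgf6, chr6:127015292-127015591: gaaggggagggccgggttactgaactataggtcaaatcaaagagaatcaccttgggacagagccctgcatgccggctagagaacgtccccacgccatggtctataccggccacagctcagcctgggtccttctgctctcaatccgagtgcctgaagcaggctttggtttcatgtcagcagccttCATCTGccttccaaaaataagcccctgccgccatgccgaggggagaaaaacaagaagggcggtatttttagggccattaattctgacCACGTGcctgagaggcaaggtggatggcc
Fgf5, chr5:98253934-98254233: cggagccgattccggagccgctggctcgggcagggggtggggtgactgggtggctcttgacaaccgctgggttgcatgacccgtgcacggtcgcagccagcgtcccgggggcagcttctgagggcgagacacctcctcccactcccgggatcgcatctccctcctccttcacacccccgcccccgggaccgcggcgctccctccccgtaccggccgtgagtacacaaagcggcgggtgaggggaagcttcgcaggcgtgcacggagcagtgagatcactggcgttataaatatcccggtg
Fgf4, chr7:144861136-144861435: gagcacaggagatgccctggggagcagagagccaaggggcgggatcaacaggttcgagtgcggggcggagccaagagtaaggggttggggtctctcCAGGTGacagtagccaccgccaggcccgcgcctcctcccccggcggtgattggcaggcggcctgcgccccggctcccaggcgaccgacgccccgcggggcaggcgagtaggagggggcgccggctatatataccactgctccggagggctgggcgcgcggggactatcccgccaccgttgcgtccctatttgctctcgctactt
The Fgf6 window held 2 E-boxes, 1 before and 1 after the start, the Fgf4 window held 1 and the Fgf5 window held 0. Among the ligands without a call, the Fgf10 window also held 2, those of Fgf7 and Fgf9 1 each and that of Fgf18 0. Of 32851 RefSeq promoter windows of the same length, 72.3% held at least 1 and 39.6% held 2 or more, so a match is common. The Smad box CAGAC, searched on both strands with overlaps allowed, was in 0 of these 3 windows and in 49.6% of all windows. It had 1 match each in the Fgf7 and Fgf9 windows and 2 in that of Fgf18. None of the 7 windows matched the MEF2 motif or the CArG box, which were found in 3.19% and 1.63% of all windows. These matches describe the letters of the windows and show no binding.

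The single probe set of Fgf6, 1 of the 2 of Fgf5 and 1 of the 4 of Fgf4 were lower in the mutants, and Fgf7, Fgf9, Fgf10 and Fgf18 had no probe set past the threshold. Across the 13 probe sets 3 were lower and 0 were higher at an adjusted p under 0.05 (limma over 45037 probe sets, Benjamini-Hochberg), where 0.326% of all probe sets were called lower and 0.422% higher. At an unadjusted p under 0.05 there were 4, all lower, where 6.54% of all probe sets were lower and 13.3% passed in either direction. The groups did not overlap for 4 of the 13, all lower in the mutants, where 9.47% of all probe sets were lower without overlap and 20% did not overlap in either direction. The same 3 probe sets were lower when arrays were blocked by replicate number, against 0.533% of all probe sets called lower. With 1 value per gene, from its brightest probe set, 2 of the 7 genes were lower (Fgf6 and Fgf5) and 0 higher, against 0.821% and 1.32% of all 13645 tested genes. All 7 genes passed the filter on dim genes, but Fgf5 did so through the controls: its mutant mean lay below the filter value, so its passing depended on the group in which it was high. The fit over all probe sets has no such filter. The median log2 difference of the 7 genes was 0.085, and that of all tested genes was 0.016. Over the 13 probe sets the median was -0.13, with 8 below 0 and 5 above, and that of all probe sets was 0.017.

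**Figure D1:**
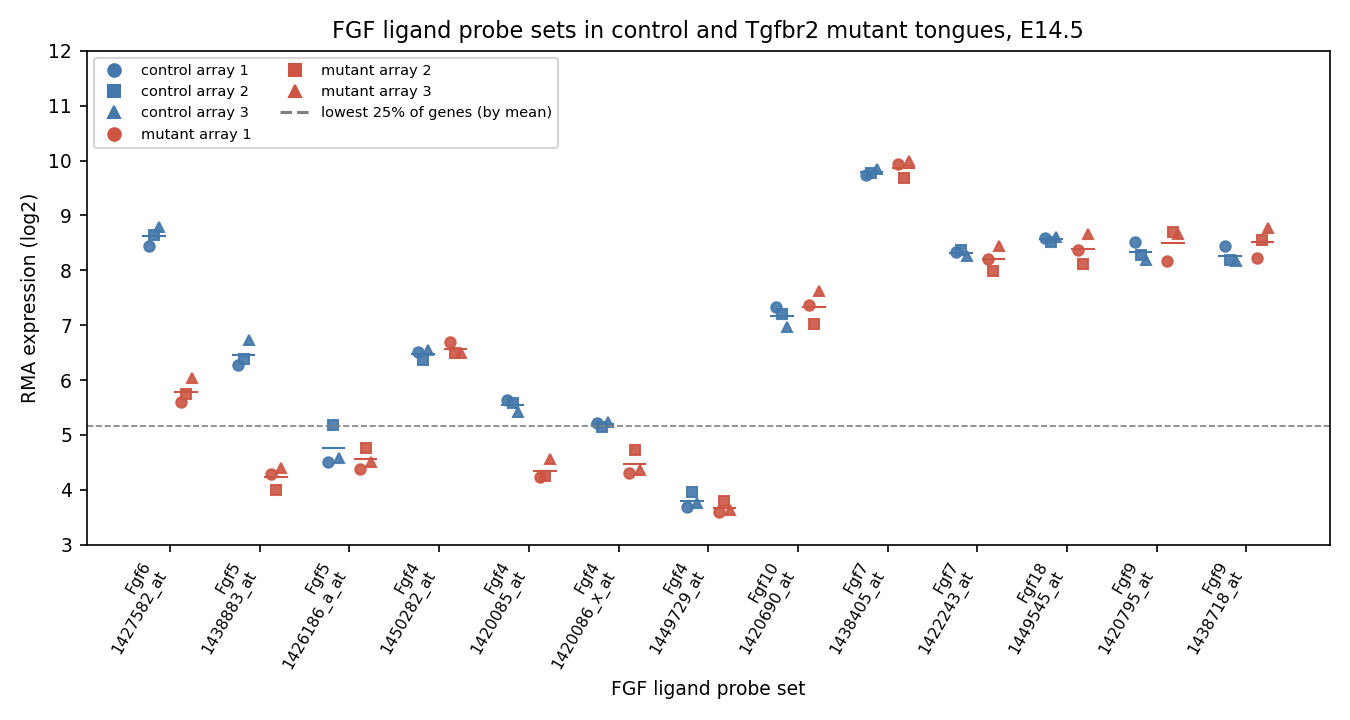
RMA expression (log2, vertical axis) of the 13 FGF ligand probe sets (horizontal axis) in each of the 3 control arrays (blue) and 3 mutant arrays (red), with short lines at the group means and a dashed line at 5.17, under which the dimmest 25% of genes lay. Levels should be read within a probe set: the mutant points lie below all control points for Fgf6, for 1438883_at of Fgf5 and for 1420085_at and 1420086_x_at of Fgf4, and the groups overlap for the other 9.

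Fgf6 encodes an FGF made almost only in the skeletal muscle lineage, and its single probe set (1427582_at) had the lowest difference of all 13645 tested genes. It read 8.44, 8.64 and 8.78 in control arrays 1 to 3 and 5.59, 5.74 and 6.03 in mutant arrays 1 to 3. The 3 mutant values lay together and below the controls, with 2.41 log2 units between the highest mutant and the lowest control. The control mean of 8.62 ± 0.17 and the mutant mean of 5.79 ± 0.22 (SD, n = 3 each) gave a log2 difference of -2.83 (standard error 0.14, 95% interval -3.16 to -2.51), or 7.11-fold lower. The limma adjusted p was 0.00275 over all probe sets and 0.00154 over genes. The difference was -2.73 without mutant array 1. Without control array 2 the difference stayed at -2.82, with an adjusted p of 0.0528 over probe sets and 0.0269 over genes.

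Fgf5 encodes an FGF of embryonic mesenchyme, best known in the mouse as the signal that ends hair growth and is lost in angora mice. Its brighter probe set (1438883_at) read 6.27, 6.38 and 6.72 in control arrays 1 to 3 and 4.29, 4.0 and 4.40 in the mutants. All mutant values were below the controls, by at least 1.87. The difference was -2.23 (standard error 0.15, 95% interval -2.58 to -1.88, limma adjusted p = 0.00387 over probe sets), or 4.69-fold lower, the seventh lowest of all tested genes. It was -2.26 without mutant array 1. The mutant mean of 4.23 ± 0.21 (SD, n = 3) was at the 22.1 percentile of probe sets, where RMA compresses differences, so the size of the fall is uncertain. Without control array 2 the difference was -2.27, and the call was lost over probe sets (limma adjusted p = 0.0528) but not over genes (limma adjusted p = 0.0310). The fit over genes holds Fgf5 only because its controls lifted it past the filter, so the call kept there is no independent check.

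The other Fgf5 probe set (1426186_a_at) did not follow. It read 4.51, 5.18 and 4.58 in the controls and 4.39, 4.77 and 4.51 in the mutants, overlapping groups near the bottom of the scale. Its difference was -0.20 (95% interval -0.64 to 0.23, limma adjusted p = 0.691). In names of this kind the letter a marks probes shared by several transcripts of 1 gene. Within each array, the brighter probe set minus the dimmer one was 1.75, 1.20 and 2.14 in the controls and -0.093, -0.77 and -0.11 in the mutants. These groups did not overlap, and the 2-sided exact permutation test gave p = 0.1, the smallest that 3 against 3 arrays allow. Both probe sets were chosen for this test after their values were seen.

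Fgf4 encodes the closest relative of the Fgf6 protein, a ligand of early embryos, limb buds and muscle precursors, and its 4 probe sets disagreed. The probe set 1420085_at read 5.64, 5.58 and 5.42 in control arrays 1 to 3 and 4.23, 4.24 and 4.56 in the mutants. The mutant values were all lower, with a gap of 0.86. Its difference was -1.21 (standard error 0.12, 95% interval -1.48 to -0.93), or 2.31-fold lower, a size as uncertain as that of Fgf5 because the mutant mean of 4.34 is also dim. The limma adjusted p of 0.0112 rose to 0.0967 without control array 2 and 0.0821 without control array 3. The probe set 1420086_x_at read 5.22, 5.14 and 5.24 in the controls and 4.31, 4.72 and 4.36 in the mutants. Those groups did not overlap either, and the difference of -0.74 (95% interval -1.02 to -0.45) just missed the threshold (limma adjusted p = 0.0505). The letter x in its name marks probes that can also read similar transcripts of other genes.

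The remaining Fgf4 probe sets did not separate the genotypes. The brightest, 1450282_at, read 6.52, 6.36 and 6.55 in the controls and 6.69, 6.50 and 6.49 in the mutants. Its difference was 0.085 (95% interval -0.14 to 0.31, limma adjusted p = 0.759), an interval that leaves out a fall of the size seen on 1420085_at. The dimmest, 1449729_at, read 3.69, 3.95 and 3.76 in the controls and 3.59, 3.80 and 3.63 in the mutants, at most at the 14.8 percentile of probe sets. In the platform annotation the brightest was designed on the RefSeq mRNA, whereas the other 3 all came from a single other sequence record. Their positions on the Fgf4 transcript were not analysed here. The within-array difference of 1420085_at from the brightest probe set was -0.88, -0.77 and -1.12 in the controls and -2.46, -2.26 and -1.93 in the mutants, with no overlap (2-sided exact permutation p = 0.1, the smallest possible, a pair chosen after its values were seen). As the mean of its 4 probe sets Fgf4 fell by 0.50 (limma adjusted p = 0.0206), while the brightest alone gave no call, so the Fgf4 result depends on which probe set stands for the gene.

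**Figure D2:**
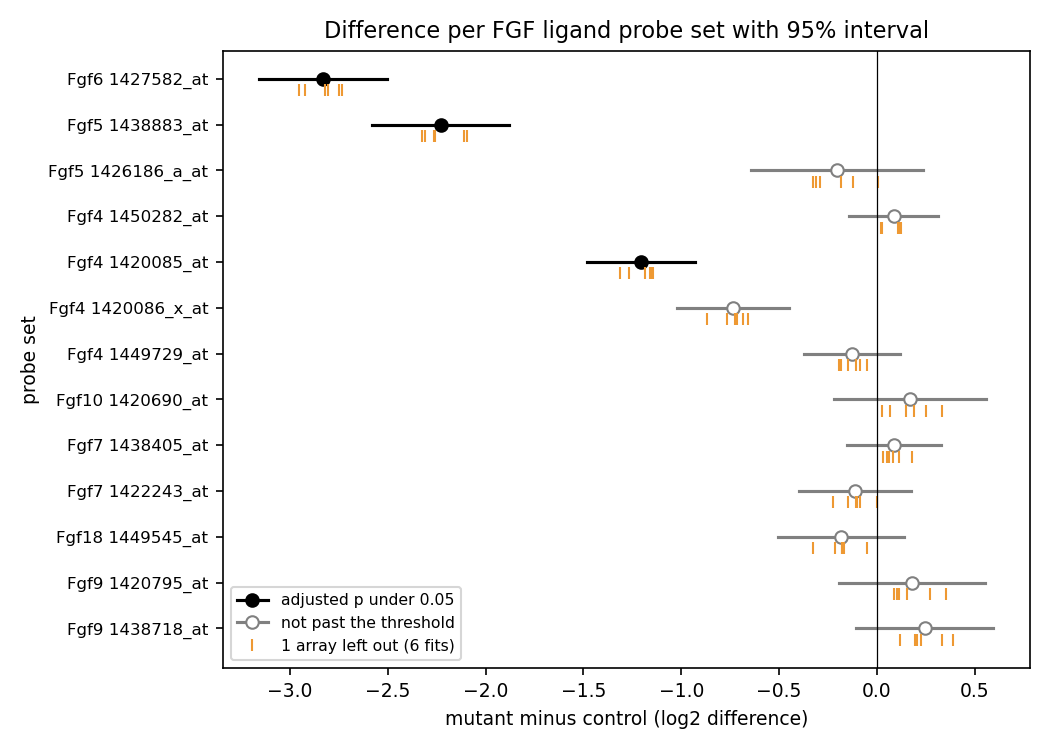
Log2 difference of mutants from controls (horizontal axis) for each FGF ligand probe set (vertical axis), with its 95% interval from limma. Filled black circles passed an adjusted p of 0.05, and orange ticks give the difference with each of the 6 arrays left out. Fgf6 (-2.83), 1438883_at of Fgf5 (-2.23) and 1420085_at of Fgf4 (-1.21) lie far below 0 in every one of these fits, and Fgf7, Fgf9, Fgf10 and Fgf18 stay within 0.39 of 0.

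Fgf10 encodes the mesenchymal ligand that drives epithelial budding, and it has also been studied as a signal from neural crest cells to tongue muscle precursors. It read 7.33, 7.21 and 6.96 in control arrays 1 to 3 and 7.38, 7.01 and 7.62 in the mutants. The groups overlapped fully: the lowest value was that of a control and the highest that of a mutant, with the others between. The difference was 0.17 (standard error 0.17, 95% interval -0.22 to 0.56, limma adjusted p = 0.713). That interval holds no fall larger than 0.22 on the log2 scale.

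Fgf7, or keratinocyte growth factor, another mesenchymal ligand for epithelium, was read by 2 probe sets. The first, 1438405_at, gave 9.73, 9.78 and 9.84 in the controls and 9.94, 9.68 and 9.99 in the mutants. The controls lay inside the range of the mutants. The difference was 0.087 (95% interval -0.15 to 0.33, limma adjusted p = 0.769). The second probe set, 1422243_at, read 8.34, 8.37 and 8.25 in the controls and 8.20, 7.99 and 8.44 in the mutants. Its difference was -0.11 (95% interval -0.40 to 0.17, limma adjusted p = 0.748), opposite in sign to the first and equally within the spread.

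Fgf18, a ligand gene of palatal and skeletal mesenchyme, read 8.58, 8.51 and 8.61 in the controls and 8.36, 8.12 and 8.66 in the mutants. Mutant arrays 1 and 2 were below the controls and mutant array 3 above them. The difference was -0.19 (standard error 0.14, 95% interval -0.51 to 0.14, limma adjusted p = 0.618).

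Fgf9, a ligand gene active in both epithelium and mesenchyme, was the only one of the 3 members with a pair of probe sets in which both differences were positive. On 1420795_at it read 8.51, 8.28 and 8.19 in the controls and 8.16, 8.69 and 8.66 in the mutants, and on 1438718_at 8.44, 8.19 and 8.17 against 8.22, 8.55 and 8.76. On both, mutant arrays 2 and 3 lay above the controls. Mutant array 1 was the lowest of all 6 arrays on the first and lay among the controls on the second. The differences were 0.18 (95% interval -0.19 to 0.55, limma adjusted p = 0.681) and 0.24 (95% interval -0.10 to 0.59, limma adjusted p = 0.537). Without mutant array 1 they were 0.35 and 0.39 (limma adjusted p = 0.235 and 0.222), the largest move that leaving this array out made to any of these 13 probe sets. The 9 measured epithelial markers were higher too, each with a positive difference (median 0.60, or 0.44 without mutant array 1). Their summed level was 13.93 to 14.05 on the log2 scale in the controls and 14.94, 14.61 and 14.28 in mutant arrays 1 to 3. It was thus highest in mutant array 1, where Fgf9 was the lowest of the mutants on both probe sets. None of the 9 was past the threshold (limma), with 6 at an unadjusted p under 0.05, where 16.9% of all tested genes were. With the replicate block 2 were past it, and the share of all genes called there was not counted. The part of these markers in the Fgf9 values was not tested.

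Within the groups, the ligands without a call did not share 1 ranking of the arrays. In the mutants, array 2 was lowest for both probe sets of Fgf7, for Fgf10 and for Fgf18, where array 3 was highest, whereas array 1 was lowest on both probe sets of Fgf9. The SD of the mutants was larger than that of the controls for 10 of the 13 probe sets (76.9%), as it was for 65.2% of all probe sets.

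Skeletal muscle markers were measured beside the muscle ligands, because fewer muscle cells and less RNA per muscle cell cannot be told apart in whole tongue RNA. Of 14 markers (regulators such as Myod1 and Myog and contractile genes such as Acta1 and Myh3) 13 had a negative difference, with a median of -0.51, or -0.23 without mutant array 1. The markers did not move alike: they ranged from -1.04 for Myh8 to 0.27 for Myf5, a regulator and the only one above 0. None of the 14 passed the threshold (limma), with 7 at an unadjusted p under 0.05, where 16.9% of all tested genes were. With the replicate number as a block 5 were lower, and the share of all genes lower there was not counted. The summed level of the markers was 16.15 to 16.44 on the log2 scale in the controls and 15.54 to 16.10 in the mutants. Relative to the control mean, the marker median was -0.80, -0.36 and -0.25 in mutant arrays 1 to 3, and Fgf6 was -3.03, -2.88 and -2.59. Fgf6 minus the marker median was thus -2.23, -2.52 and -2.34 in the same arrays, against 0.017, -0.11 and 0.051 in the controls. The mean of that gap changed by -2.35 between genotypes, and the corresponding changes were -1.74 for 1438883_at of Fgf5 and -0.72 for 1420085_at of Fgf4 (2-sided exact permutation p = 0.1 each, the smallest that 3 against 3 allow). For 1420086_x_at of Fgf4 the change was -0.25, and its groups overlapped (exact permutation p = 0.4). After this subtraction 3 of the 13 probe sets were lower without overlap, as were 0.495% of all probe sets, and 4 were higher without overlap, as were 51.5% of all probe sets. The subtracted median was itself lower in the mutants, and the 4 (1450282_at of Fgf4, 1438405_at of Fgf7 and both of Fgf9) had differences of only 0.085 to 0.24 before it. With 3 against 3 arrays this exact test cannot reach 0.05, and over the 13 comparisons its smallest adjusted p was 0.186. The 10 mesenchymal markers had a median difference of -0.088, with 7 below 0 and 3 above. They ranged from -0.57 for Col1a2 to 0.77 for Lum. Their summed levels were 15.85 to 16.02 in the controls and 15.64 to 16.08 in the mutants. Lum and Dcn were the 2 past the threshold, both higher. Of the other cell types, the 6 endothelial markers had a median of -0.44 (-0.12 without mutant array 1) and the 3 tested red cell markers -0.18, none past the threshold. The 4 tested nerve markers had a median of 0.28 with Stmn2 higher, the 5 macrophage markers 0.54 with C1qa higher, and the 2 tested neural tube markers 0.12. The part of any of these in the ligand values was not tested.

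**Figure D3:**
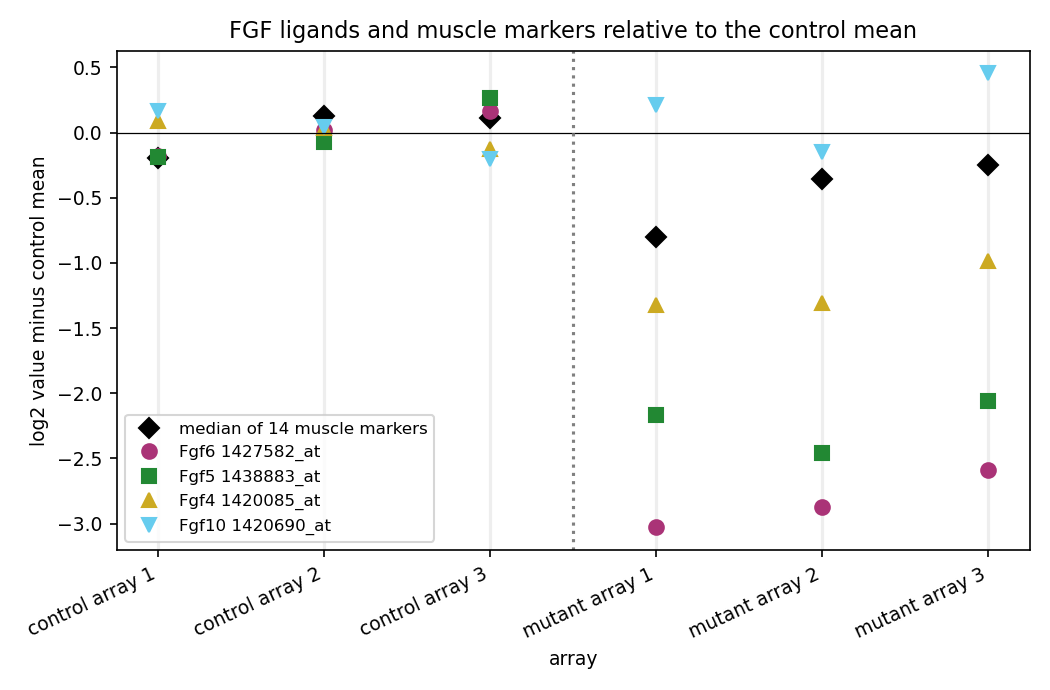
Values of Fgf6, Fgf5, Fgf4 and Fgf10 and the median of 14 skeletal muscle markers, each minus its own control mean (log2, vertical axis), in the 6 arrays (horizontal axis). In each mutant array Fgf6, Fgf5 and 1420085_at of Fgf4 lie below the muscle marker median, with Fgf6 minus that median at -2.23, -2.52 and -2.34, and Fgf10 lies above it.

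Genes with profiles like the ligands that fell were found by the root mean square difference over the 6 arrays, each gene taken relative to its control mean. Nearest to Fgf6 were Col19a1, a collagen gene expressed in embryonic muscle (0.31), Fabp4, a fatty acid binding protein gene of fat and capillaries (0.34), and Prokr2, a prokineticin receptor gene (0.42). Fgf5 came next, the fourth of all tested genes at 0.45. Nearest to Fgf5 were Dbx1, a homeobox gene of neural progenitors (0.20), Angptl1, encoding a secreted angiopoietin-like protein (0.23), and again Prokr2 (0.23). Dbx1 read 7.88, 8.32 and 8.39 in the controls and 6.21, 6.08 and 5.99 in the mutants, a difference of -2.10 (limma adjusted p = 0.00298). The likeness rests mostly on the shared difference between 3 and 3 arrays, and it is a description.

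In the rest of the FGF pathway 2 genes were called, both higher, where 2.14% of all tested genes were called in either direction and 16.9% had an unadjusted p under 0.05 (7.46% lower). The list of 15 other genes with an Fgf symbol was made by name, includes Fgf11 to Fgf14 and is not limited to secreted ligands. Of these, 8 were too dim to be tested. Among them were Fgf2 and Fgf8, whose means were 3.93 and 4.94 in the controls and 3.89 and 5.07 in the mutants. None of the 7 tested passed the threshold (limma, 2 at an unadjusted p under 0.05), and their median difference was 0.027. Fgf1, a ligand for all FGF receptors, gave 0.24 (adjusted p = 0.286).

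Of 17 tested receptors, co-receptors and carriers 2 rose and 0 fell, where 1.32% of all tested genes were higher and 0.821% lower, with a median of 0.054. Sdc1, encoding the heparan sulfate carrier syndecan 1, read 10.58, 10.41 and 10.47 in the controls and 11.24, 11.15 and 10.94 in the mutants. It rose by 0.63 (standard error 0.11, limma adjusted p = 0.0351). Flrt3, encoding a membrane protein that binds FGF receptors, read 9.99, 9.75 and 9.76 in the controls and 10.39, 10.64 and 10.47 in the mutants. It rose by 0.67 (standard error 0.11, limma adjusted p = 0.0313). Neither gene's groups overlapped, but both calls were lost with sex as a covariate (adjusted p = 0.0983 and 0.0843) and without control array 1, 2 or 3 or mutant array 2, and that of Flrt3 also without mutant array 3. The differences moved little in those fits: that of Sdc1 was 0.61 with sex and 0.59 to 0.67 without each such array, and that of Flrt3 was 0.66 with sex and 0.60 to 0.75. The summed level of the epithelial markers, given beside Fgf9, was also higher in the mutants. From mutant array 1 to 3 it fell in the same order as Sdc1, whereas Flrt3 was the lowest of the mutants in array 1. The part of these markers was not tested. Among the receptors, Fgfr1 differed by -0.40, Fgfr2 by 0.64, Fgfr3 by 0.38 and Fgfr4, the receptor gene of differentiating muscle, by -0.60 (limma adjusted p = 0.337, 0.0996, 0.390 and 0.342). Without mutant array 1 these differences were -0.19, 0.50, 0.14 and -0.24. Without mutant array 1 the list had 4 higher calls, with Fgfbp1 and Gpc6 added, 2 carriers named here after their values were seen. The share of all tested genes called in that fit was not counted, so these additions cannot be set against it.

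Of 15 tested feedback and response genes none passed (limma, 3 at an unadjusted p under 0.05), with a median of -0.050. Egr1, an early response gene of growth factor signalling named here after its values were seen, had the largest difference of the list, 0.66 (limma adjusted p = 0.167), and without mutant array 1 it was 0.91 (adjusted p = 0.00261). The feedback inhibitor gene Spry1 was 9.92, 10.07 and 10.07 in the controls and 9.56, 9.64 and 9.64 in the mutants, lower in all 3, with a difference of -0.40 (standard error 0.088) and a limma adjusted p of 0.0769. Spry2 and Spry4 differed by 0.099 and -0.43 and Dusp6 by 0.098. The FGF-responsive transcription factor genes Etv4 and Etv5 differed by -0.27 and -0.010. The limma adjusted p of these genes lay between 0.204 and 0.984. Etv4 was 6.78, 6.85 and 6.91 in the controls and 6.67, 6.57 and 6.49 in the mutants, also lower in all 3 (95% interval -0.48 to -0.05). The 95% interval of Dusp6 was -0.09 to 0.28. Its values of 11.41 to 11.45 in the controls and 11.50 to 11.56 in the mutants varied little between arrays, and the groups did not overlap. Groups without overlap, in either direction, were found for 25.1% of all tested genes.

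**Figure D4:**
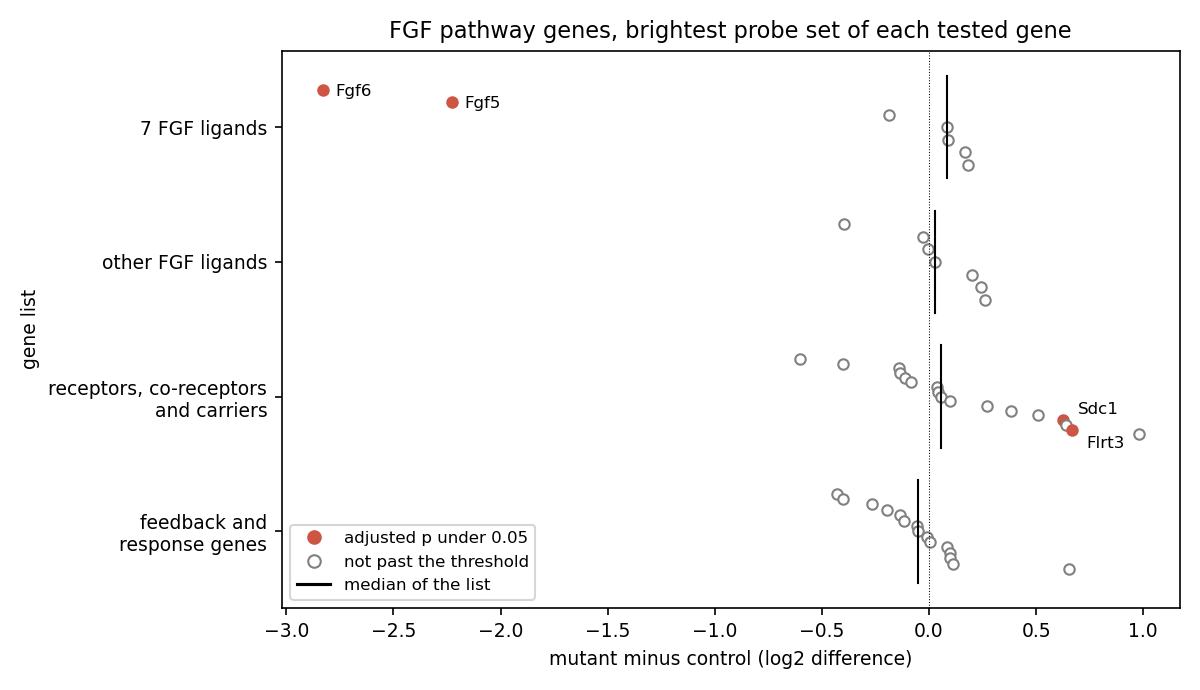
Log2 difference of mutants from controls (horizontal axis) for each tested gene of the 4 lists (vertical axis), read by its brightest probe set, with filled circles for an adjusted p under 0.05 and vertical bars at the medians. Fgf6 and Fgf5 stand alone on the left, Sdc1 and Flrt3 are the 2 calls on the right, and all list medians lie between -0.050 and 0.085.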

How the data were processed

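The deposited table holds 1 log2 value per probe set and array, made by the authors. The submitters' processing notes name RMA without its version. Values ran from 2.53 to 14.93, with array medians of 5.924 to 5.983. RMA forces the arrays towards 1 common distribution and compresses differences of dim probe sets. Arrays have no read depth: the 3 arrays per group limit the precision (median standard error of a log2 difference 0.117).

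Of 45101 probe sets 64 control probe sets were left out. Symbols came from the platform annotation, where 34945 probe sets had 1 symbol, and a RefSeq table (GRCm38.p6) matched by Entrez identifier changed 0 of them. The test of mutants against controls was that of limma 3.58.1 under R 4.3.3 (functions lmFit and eBayes, 2-sided, Benjamini-Hochberg, threshold 0.05), once over all 45037 probe sets and once over 13645 genes, each read by its probe set with the highest mean, with the lowest 25% of genes left out. The fit was tested on simulated data. Figures used matplotlib 3.10.9.

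The members, the lists and the rule for named genes were chosen with earlier results of these data known. The rule names every member probe set, the called genes and 13 fixed genes of the FGF pathway lists, and for each called member the 3 genes nearest in profile. Lists are described by counts and medians, without a set test.

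Titles give numbers 1 to 3 in each genotype. For arrays sharing a number, the correlation of deviations from the genotype mean was 0.309, 0.105 and 0.206. Each exceeds 0.1, the limit set for pairing, although arrays with different numbers also reached 0.196 (mutant 2 with control 3) and 0.147 (mutant 3 with control 2). The arrays were treated as pairs by number in the replicate block. The labels do not explain the numbers and name no litters, so the p-values reflect only the spread of these samples, which may be technical. Alternatives were other filters, means of probe sets, other scaling and variance settings, array weights, the replicate block, sex as a covariate (from Xist and Y-linked genes), and each array left out.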

Additional observations from a re-analysis of the deposited data

How the results depend on the processing

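The falls of Fgf6 and Fgf5 kept their direction in each alternative in which they were tested, with log2 differences between -2.95 and -2.73 for Fgf6 and between -2.32 and -1.22 for Fgf5, the last as the mean of its probe sets. Over genes Fgf6 and Fgf5 kept the call in each of these fits in which they were tested, although Fgf5 passed the main gene filter only through its controls. Over probe sets both calls were lost without control array 2 (adjusted p = 0.0528 each). The count of lower FGF ligand genes was 2, and 0 with the lowest 50% of genes left out, because that filter removes both. The count of lower FGF ligand probe sets, 3 of 13, ranged from 0 to 4 with 1 array left out: it was 0 without control array 2 and 2 without control array 3. The count of higher calls was 0 throughout. For the other FGF pathway genes the count of higher calls, 2, was 4 with array quality weights and 0 with sex as a covariate, and ranged from 0 to 5 with 1 array left out (5 without mutant array 1, and 0 without mutant array 2, control array 1, 2 or 3). The count of lower calls, 0, was 2 with array quality weights (Spry1 and Etv4, adjusted p = 0.0179 and 0.0449). The cause of these moves was not tested, and the shares of all genes called in these fits were not counted. The replicate block changed no call of an FGF ligand or of another pathway gene, with Fgf6 at -2.83 (adjusted p = 0.000464 over genes).

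As means of their probe sets, Fgf4 turned to -0.50 and Fgf7 to -0.012, since other probe sets enter. With 1 array left out the dim Fgf5 probe set ranged from -0.33 to 0.0060 (without control array 2), Etv5 from -0.20 to 0.23 and Tgfbr2 from -0.30 to 0.014. Etv5 turned to 0.030 with quantile normalization, 0.20 with array quality weights, 0.060 with sex as a covariate, 0.23 without mutant array 1 and 0.038 without control array 1, and Tgfbr2 turned to 0.014 without mutant array 1. The second Fgf4 probe set (1420086_x_at) passed with arrays centred on their median, with quantile normalization, with trend and robust fitting, with array quality weights and without mutant array 2 (adjusted p between 0.0257 and 0.0470).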
